A study of Homo sapiens with 27 samples.

Results

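5-Fluorouracil (5-FU) was compared with no treatment in the human cell line MDA-MB-231, which was established from a breast adenocarcinoma, obtained from ATCC and grown in DMEM with 10% fetal bovine serum. The comparison used 6 of the 27 libraries of the series, namely the 3 labelled as given 5-FU at 10 ug/ml for 48 h and the 3 labelled untreated at 48 h, which were assigned to their group by the sample labels. The other libraries came from the same line given compound Kushen injection (CKI, a mixed herbal extract) with or without 5-FU, and from A431 cells, and of these only the 6 CKI libraries of MDA-MB-231 were used, for a second look at 5-FU. The series describes the 3 libraries of a group as biological replicates, and no vehicle control for 5-FU in this line was analysed here.

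5-FU is a uracil analogue that cells convert into fluorinated nucleotides. A fluorinated deoxynucleotide blocks thymidylate synthase, the enzyme that makes the thymidine nucleotide needed for DNA, and other products enter RNA and DNA in place of normal bases. Cells with too little thymidylate accumulate stalled replication forks, so that S phase checkpoint genes and DNA repair genes are commonly studied after this drug, together with p53 target genes. MDA-MB-231 cells lack the hormone receptors of luminal breast cells and have a mesenchymal character.

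RNA was read as unstranded paired ends, and each library held between 19979962 and 22809339 counts over genes. Expression is given as CPM, the counts of a gene scaled to a fixed library total, after TMM scaling. The line's markers were present in every library, with VIM, which encodes vimentin, at 1993, 1662 and 1618 CPM in untreated cells and 994, 1021 and 1059 CPM after 5-FU. The 8 luminal breast markers, set as absent or low in this line, summed to 1293 to 1455 CPM in untreated and 781 to 806 CPM in treated cells, nearly all of it from KRT8, a keratin, at 1417, 1298 and 1246 against 741, 769.8 and 749 CPM. Of the hormone receptor genes, ESR1 was at 0 in all untreated libraries and at no more than 0.194 CPM after 5-FU, and PGR at no more than 0.146 CPM in any of the 6. Untreated replicate 1 stood apart. Across genes its log2 CPM correlated with those of untreated replicates 2 and 3 with Pearson's r of 0.981 and 0.978, against 0.995 between these 2, and its difference from them followed the GC content of the genes (Spearman's rho of 0.656 and 0.644 across genes). The 5-FU libraries correlated with each other at 0.994 to 0.995, but replicate 3 minus replicates 1 and 2 also followed GC content (rho of -0.386 and -0.335). Differences of 5-FU minus untreated libraries had rho of 0.135 to 0.223 with GC content for untreated replicate 1. For untreated replicates 2 and 3 the rho was -0.253 to -0.361. The fitted log2 fold change of 5-FU minus untreated had a rho of -0.162 with GC content across genes. Because untreated replicate 1 stood apart, calls that change without it are named beside the genes below. CPM is a share of the RNA sequenced, so fewer cells expressing a gene and less of its RNA per cell cannot be told apart.

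A total of 13999 genes were tested with edgeR's quasi-likelihood test and Benjamini-Hochberg adjustment over all of them, and every adjusted p below comes from that test. Differentially expressed (DE) genes passed an adjusted p of 0.05 with a log2 fold change above 1 or below -1, and "rose" and "fell" are used for these alone. 5-FU raised 842 genes, which is 6.01% of those tested, and lowered 1024, which is 7.31%. Shares in brackets for the gene lists below are to be set beside these. With the adjusted p alone, 28.6% of genes were higher and 28.5% lower. The 5-FU and untreated libraries did not overlap in 1810 (97%) of the 1866 DE genes and in 58.5% of all genes tested. Changes over 4-fold were found in 143 genes that rose and 135 that fell, and changes over 8-fold in 49 and 28. Without untreated replicate 1, 1679 (90%) of the DE genes kept their call. With library size alone in place of TMM, the median of all genes moved from -0.0037 to 0.127 on the log2 scale, and 1142 genes rose and 768 fell.

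**Figure D1:**
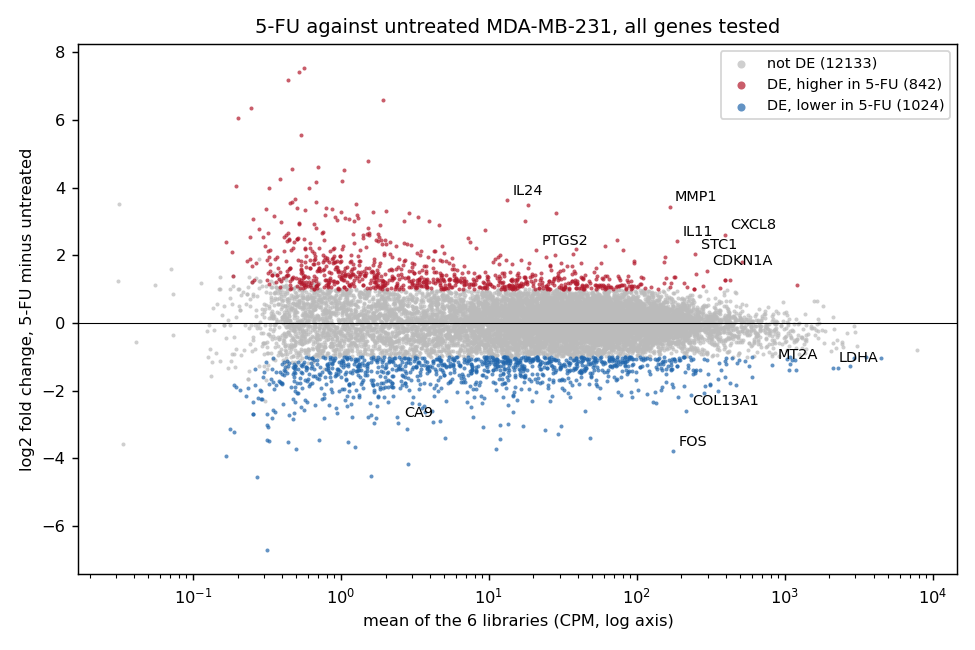
Mean CPM of the 6 libraries (log axis) against the log2 fold change of 5-FU minus untreated, with one point for each of the 13999 genes tested. The 842 genes that rose are red, the 1024 that fell are blue, and the widest spread lies among genes under about 1 CPM, where fitted fold changes of genes near 0 depend on the prior count.

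The smallest adjusted p belonged to MMP1, which encodes interstitial collagenase, a protease that cuts fibrillar collagen. It had 30.3, 26.6 and 27.7 CPM in the untreated libraries and 300.1, 299.6 and 313 CPM after 5-FU. Every treated library was far above every control (log2 fold change of 3.43 ± 0.07 SE, edgeR adjusted p = 2.9e-11). STC1, which encodes the secreted glycoprotein stanniocalcin, went from 94.5, 97 and 99.6 to 389, 396 and 409 CPM (log2 fold change of 2.04 ± 0.05 SE, edgeR adjusted p = 1.5e-10). TNFSF15, a cytokine of the tumour necrosis factor family, rose from 19.4, 21.5 and 20.8 to 98, 99 and 105 CPM. CDCA5, which encodes the cohesin regulator sororin, had 127, 139.8 and 136 CPM without and 361, 365 and 372 CPM with 5-FU. PTGS2, the inducible prostaglandin synthase, rose from 8.58, 7.28 and 7.08 to 33, 34.6 and 34.4 CPM (log2 fold change of 2.15 ± 0.09 SE, edgeR adjusted p = 5.7e-09). RPL13AP20, a ribosomal protein pseudogene, had 3.81, 3.45 and 4.24 against 31.4, 31.6 and 30.0 CPM, but its reads could be shared with near-identical copies and its value is uncertain.

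Among the genes that fell, COL13A1, a transmembrane collagen, had the smallest adjusted p. Its 348, 379 and 386 CPM in untreated cells became 63.2, 60.0 and 60.8 CPM (log2 fold change of -2.60 ± 0.06 SE, edgeR adjusted p = 5.5e-11). VIPR1, a receptor for vasoactive intestinal peptide, fell from 77.1, 79.6 and 74.8 to 12.9, 13.4 and 11.6 CPM. In both genes the 3 libraries of a group lay close together and the groups were far apart. FOS, a subunit of the AP-1 transcription factor, was at 395, 314 and 271 CPM in untreated and 20.9, 25.1 and 24.4 CPM in treated cells (log2 fold change of -3.80 ± 0.13 SE, edgeR adjusted p = 1.8e-09). Its relative FOSB fell from 43.3, 59.4 and 62.4 to 7.04, 6.7 and 6.25 CPM. Among genes of at least 5 CPM in the higher group, the largest falls also included LHPP (log2 fold change of -3.73 ± 0.16 SE, edgeR adjusted p = 8.6e-09) and MIR210HG, the host transcript of a hypoxia-induced microRNA (log2 fold change of -3.42 ± 0.17 SE, edgeR adjusted p = 2e-08).

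**Figure D2:**
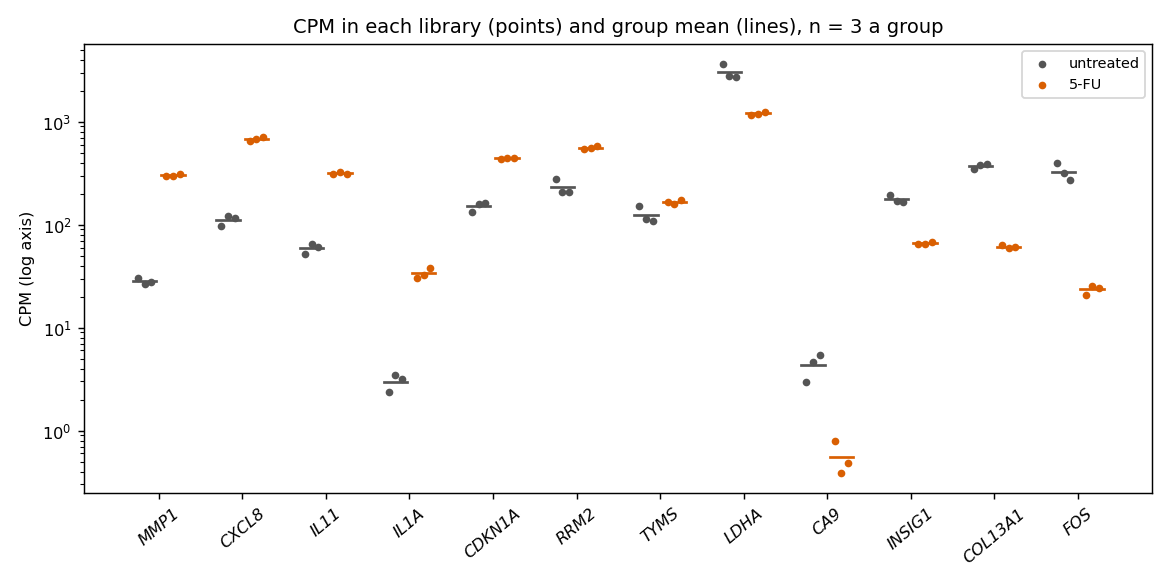
CPM of 12 genes in each library (points, log axis) with the mean of each group (lines), untreated in grey and 5-FU in orange, 3 libraries a group. The groups overlap in none of the 12 genes, and TYMS, whose untreated libraries span 109 to 151 CPM, has the smallest gap.

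The enzymes that handle 5-FU and thymidylate were examined first. Of 39 tested members, 2 rose and 4 fell, and 18 were higher and 10 lower by the adjusted p alone, with a list median of 0.17 on the log2 scale against -0.0037 for all genes. The shares that rose and fell were 5.13% and 10.3%, against 6.01% and 7.31% of all genes. By the adjusted p alone, 28.6% of all genes were higher and 28.5% lower. With library size alone in place of TMM, 3 rose and 1 fell, and the calls of DPYD, SHMT2 and SLC29A2 described below were lost (log2 fold changes of -0.91, -0.92 and -0.89). TYMS, which encodes thymidylate synthase, the drug's main target, had 151, 114 and 109 CPM in untreated and 164, 158 and 172 CPM in treated cells (log2 fold change of 0.40 ± 0.10 SE, edgeR adjusted p = 0.0047), which is under the fold threshold. RRM2, the regulated subunit of the ribonucleotide reductase that supplies deoxynucleotides, rose from 280.4, 209 and 208 to 549, 555 and 578 CPM (log2 fold change of 1.27 ± 0.10 SE, edgeR adjusted p = 7.1e-07). Its partner RRM1 had 215, 189 and 192 against 377, 376 and 402 CPM (log2 fold change of 0.95 ± 0.06 SE, edgeR adjusted p = 1.2e-07), short of the fold threshold with all libraries and past it without untreated replicate 1. CDA, cytidine deaminase, rose from 20.0, 31.9 and 28.1 to 57.4, 52.6 and 52.8 CPM, a call that was lost without untreated replicate 1 (log2 fold change of 0.85) and without 5-FU replicate 1 (0.98).

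DPYD encodes dihydropyrimidine dehydrogenase, the enzyme that breaks down 5-FU. It had 100.1, 83.7 and 84.5 CPM in untreated cells and 43.8, 43.4 and 43.5 CPM after the drug (log2 fold change of -1.04 ± 0.07 SE, edgeR adjusted p = 3.6e-07), so that every treated library lay below every control, although the log2 fold change without untreated replicate 1 was -0.95 and no longer past the threshold. SHMT2, the mitochondrial enzyme that feeds folate with one-carbon units, fell from 272, 348 and 344 to 150.3, 162 and 153 CPM, and its log2 fold change of -1.05 became -0.99 without untreated replicate 2. SLC19A1, the reduced folate carrier, fell from 1.69, 2.33 and 4.29 to 0.417, 0.437 and 0.387 CPM. The nucleoside transporter SLC29A2 fell as well, but its first untreated library, at 8.47 CPM, lay within the treated range of 7.41 to 9.18 CPM, and its log2 fold change of -1.02 lost its call without untreated replicate 2 (-0.88), untreated replicate 3 (-0.79) or 5-FU replicate 3 (-0.94), with the replicate number as a block (-0.99) and with offsets for GC content and transcript length (-0.91). The activating enzymes did not pass the fold threshold. UMPS had a log2 fold change of 0.54, UPP1 of 0.66, TK1, the thymidine salvage kinase, of 0.48, and TYMP of -0.84.

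Genes of the replication fork were mostly higher by the adjusted p. Of 29 tested members 4 (13.8%) rose and none fell, and 19 were higher and 2 lower by the adjusted p alone, with a median of 0.41. By that measure 28.6% of all genes were higher and 28.5% lower. CLSPN, which encodes claspin, an adaptor of the checkpoint at stalled forks, rose from 33, 44.2 and 51.7 to 152, 139 and 151 CPM (log2 fold change of 1.78 ± 0.12 SE, edgeR adjusted p = 3e-07). TIPIN, a member of the fork protection complex, rose from 19, 14.3 and 16 to 35.6, 36.7 and 38.5 CPM, and RFC3, a clamp loader subunit, and WDHD1 rose with log2 fold changes of 1.06 and 1.05. RFC3 had 0.97 without untreated replicate 2, and without untreated replicate 3 both genes came to just under the fold threshold. Offsets for GC content and transcript length also ended both calls (0.92 and 0.96), and with them, or without untreated replicate 3, 2 of the 29 rose. Of 41 homologous recombination, Fanconi and checkpoint genes 3 rose and none fell, and this share of 7.32% was close to the 6.01% of all genes that rose. By the adjusted p alone 27 of the 41 were higher, where 28.6% of all genes were, and 5 were lower, with a median of 0.45. Without untreated replicate 1, and likewise with library size alone, 5 of them rose. XRCC2, a homologous recombination gene, rose from 20.3, 17.2 and 17.7 to 46.6, 47.3 and 45.3 CPM (log2 fold change of 1.33 ± 0.07 SE, edgeR adjusted p = 4.6e-08). RBBP8, which encodes the end resection factor CtIP, rose from 84.1, 55.7 and 58.3 to 146, 143 and 149.6 CPM, and XRCC3 from 35, 49.1 and 50.2 to 114, 111 and 102 CPM. In mismatch, base and nucleotide excision repair, none of 25 members passed both thresholds.

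Of 24 origin licensing and helicase genes 2 rose and 1 fell, and 4 rose with library size alone. The shares of 8.33% and 4.17% were close to the 6.01% and 7.31% of all genes. ORC1, a subunit of the origin recognition complex, rose from 24.9, 20.1 and 22.1 to 54.9, 51.2 and 54.6 CPM, while MCM6, a subunit of the replicative helicase, fell from 114, 105 and 104 to 44.3, 45.8 and 48.2 CPM (log2 fold change of -1.22 ± 0.06 SE, edgeR adjusted p = 3e-08). CDT1, a licensing factor, rose from 32.6, 59.7 and 57 to 111, 108 and 105 CPM, and its log2 fold change of 1.12 became 0.89 without untreated replicate 1. MCM2 had a log2 fold change of 0.47 and PCNA, the sliding clamp, of -0.15 (edgeR adjusted p = 0.11). In the G1 list 4 of 24 members (16.7%) rose and 2 (8.33%) fell, and none fell with library size alone. CDC25A, a phosphatase that activates cyclin-dependent kinases, rose from 38.1, 32.8 and 33.1 to 85.3, 89.6 and 95.9 CPM, E2F8 from 26, 22.8 and 22.7 to 61.5, 61 and 59.2 CPM, and CCNE2, a cyclin of S phase entry, from 19.7, 14 and 11.6 to 34.5, 36.9 and 36.3 CPM.

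None of 51 genes of G2 and mitosis rose or fell by both thresholds, while 9 were higher and 20 lower by the adjusted p alone. By that measure 28.6% of all genes were higher and 28.5% lower. CCNB1, the mitotic cyclin B1, had 393, 296 and 289 CPM in untreated and 184, 193 and 187 CPM in treated cells (log2 fold change of -0.79 ± 0.10 SE, edgeR adjusted p = 2.9e-05). MKI67, the proliferation marker Ki-67, had 215, 306 and 338 against 459, 386 and 441 CPM (log2 fold change of 0.58 ± 0.13 SE, edgeR adjusted p = 0.0022). The 2 genes thus differed in opposite directions, and the list's median of -0.11 changed sign under at least 1 alternative scaling or fit. LMNB1, lamin B1, had a log2 fold change of -0.44.

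Of 38 p53 target genes, 4 rose and none fell, with 19 higher and 5 lower by the adjusted p alone and a median of 0.32. The share that rose was 10.5%, against 6.01% of all genes. By the adjusted p alone, 28.6% of all genes were higher. CDKN1A, which encodes the cell cycle inhibitor p21, rose from 134, 159.7 and 162 to 439, 447 and 444 CPM (log2 fold change of 1.54 ± 0.07 SE, edgeR adjusted p = 1e-08). AEN, an exonuclease of apoptosis, rose from 28.2, 27.4 and 28.2 to 65.2, 70.9 and 63.1 CPM, and TNFRSF10A, a death receptor for TRAIL, from 33.2, 37.2 and 34.8 to 72, 73.2 and 75.8 CPM. MDM2, the ubiquitin ligase of p53, had 45.2, 43.3 and 45.2 against 66.5, 67.3 and 69.9 CPM (log2 fold change of 0.61 ± 0.06 SE, edgeR adjusted p = 3.1e-06), and GDF15, a stress cytokine, had 32.8, 49 and 44.7 against 64.2, 69.1 and 61.5 CPM (log2 fold change of 0.62 ± 0.14 SE, edgeR adjusted p = 0.0021), both under the fold threshold. PLK2, another member, was lower without passing the fold threshold (log2 fold change of -0.98 ± 0.07 SE, edgeR adjusted p = 2.2e-07). The state of p53 in these cells was not examined, and its part in these values was not tested. Of 17 BCL2 family genes 1 (5.88%) rose and 1 (5.88%) fell, with a median of -0.20, shares close to the 6.01% and 7.31% of all genes. With at least 10 counts in every library, none of 16 rose. The gene that rose was BCL2A1, an inhibitor of apoptosis. It was at 0 in untreated replicates 1 and 2 and at 0.0998 CPM in replicate 3, and had 4.03, 3.64 and 3.68 CPM after 5-FU. Outside this family, BIRC3, an inhibitor of apoptosis that NF-κB induces, rose from 70.8, 67.9 and 64 to 228, 239 and 241 CPM (log2 fold change of 1.80 ± 0.07 SE, edgeR adjusted p = 2.4e-09).

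Genes of secreted inflammatory mediators were among those that rose, with IL24, IL1A and CSF3 past 8-fold. NF-κB and AP-1 are transcription factors that control many of these genes, and IL-1 and CXCL8 are known as signals that recruit and activate inflammatory cells. Of 28 interleukins, colony-stimulating factors and their receptors, 10 rose and 1 fell, a share of 35.7% against the 6.01% of all genes that rose. The 28 include genes near 0 in untreated cells. With at least 10 counts in every library, 7 of 25 rose, and the median was 0.35 in place of 0.50. IL24 rose from 1.54, 1.91 and 2.49 to 23.2, 25.9 and 24.8 CPM (log2 fold change of 3.63 ± 0.13 SE, edgeR adjusted p = 1.9e-09). IL1A, interleukin 1 alpha, had 2.38, 3.45 and 3.14 CPM in untreated and 30.7, 32.6 and 38.1 CPM in treated cells (log2 fold change of 3.49 ± 0.14 SE, edgeR adjusted p = 4.7e-09), and IL1B rose from 10.8, 15.6 and 15 to 44.6, 47.3 and 50.7 CPM. CSF3, granulocyte colony-stimulating factor, rose from 5.03, 6.53 and 4.54 to 48.8, 54 and 50.4 CPM (log2 fold change of 3.24 ± 0.13 SE, edgeR adjusted p = 5.8e-09).

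IL11, a cytokine of the IL-6 family, rose from 51.8, 64.9 and 60.4 to 313, 324 and 312 CPM (log2 fold change of 2.42 ± 0.08 SE, edgeR adjusted p = 1.1e-09). IL6 itself had 95.2, 114 and 109.9 against 195, 195 and 209 CPM (log2 fold change of 0.90 ± 0.07 SE, edgeR adjusted p = 7.6e-07), under the fold threshold. The receptor IL1RL1 was at 0 in all untreated libraries and had 0.648, 0.923 and 1.07 CPM after 5-FU, so that no fold is given. CSF1, the macrophage growth factor, went the other way, from 335, 571 and 601 to 224, 217 and 217 CPM.

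Of 13 chemokines 4 (30.8%) rose and 1 (7.69%) fell, and with at least 10 counts in every library 3 of 11 rose. CXCL8, interleukin 8, rose from 96.7, 122 and 115 to 648, 678 and 711 CPM (log2 fold change of 2.61 ± 0.08 SE, edgeR adjusted p = 1.1e-09), and CXCL3 from 4.45, 4.62 and 5.04 to 17.9, 19.2 and 20.3 CPM. Among 18 NF-κB subunits and feedback genes, 5 (27.8%) rose and 1 (5.56%) fell, with a median of 0.57. TRAF1, a signalling adaptor, rose from 21.3, 22.5 and 23.7 to 125, 124 and 123 CPM (log2 fold change of 2.46 ± 0.07 SE, edgeR adjusted p = 6e-10), and TNFAIP3, which encodes the inhibitor A20, from 10.6, 14.7 and 16.1 to 66.6, 62.5 and 60.4 CPM. The subunit genes RELB and REL rose from 30.5, 47.2 and 46.6 to 112, 108 and 106 and from 2.44, 3.5 and 3.44 to 8.2, 8.45 and 6.59 CPM. The one that fell was VCAM1, an adhesion molecule, from 53.7, 61.8 and 61.1 to 17.7, 16.9 and 20.2 CPM (log2 fold change of -1.69 ± 0.11 SE, edgeR adjusted p = 1.2e-07).

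The promoters of some of these genes are shown because AP-1 and NF-κB motifs are known in them, and the genes shown rose. They are the 250 bases before the start of the gene in RefSeq on GRCh38.p14, read 5′ to 3′ on the gene's strand, while the counts were made on hg19. Capitals mark the AP-1 motif TGANTCA in CXCL8 and IL11 and the NF-κB motif in TNFAIP3, both searched on both strands, where TGANTCA reads the same. The genes were chosen because a match was present.
CXCL8 (chr4:73740319-73740568, + strand): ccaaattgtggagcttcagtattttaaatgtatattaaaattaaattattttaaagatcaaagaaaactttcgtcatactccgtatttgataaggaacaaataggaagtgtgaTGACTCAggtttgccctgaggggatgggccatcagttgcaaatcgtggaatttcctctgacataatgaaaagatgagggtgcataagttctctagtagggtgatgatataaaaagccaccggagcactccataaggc
IL11 (chr19:55370464-55370713, - strand): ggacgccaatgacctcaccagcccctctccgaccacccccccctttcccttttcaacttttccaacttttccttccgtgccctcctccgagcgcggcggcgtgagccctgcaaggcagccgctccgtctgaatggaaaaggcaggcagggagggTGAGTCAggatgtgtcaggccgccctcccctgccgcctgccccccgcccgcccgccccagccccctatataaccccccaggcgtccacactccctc
TNFAIP3 (chr6:137867009-137867258, + strand): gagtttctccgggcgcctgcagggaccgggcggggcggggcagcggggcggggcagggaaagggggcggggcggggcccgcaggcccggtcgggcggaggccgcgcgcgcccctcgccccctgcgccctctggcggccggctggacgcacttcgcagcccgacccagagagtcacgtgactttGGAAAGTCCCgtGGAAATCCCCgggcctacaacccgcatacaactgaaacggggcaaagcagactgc
The CXCL8 match begins 137 bases before the start, and the IL11 match 96 bases before it. TNFAIP3 has matches at 67 and 55 bases. Over the 11235 tested genes with such a promoter, 4.12% held TGANTCA and 5.95% the NF-κB motif, against 8.24% and 7.27% of the 619 genes that rose and 3.81% and 5.12% of the 762 that fell. The E2F letters TTTNGCGC were in 2.46% of all, 2.1% of those that rose and 2.23% of those that fell. Matches are a description of letters, and no test was made. MMP1 was not among the genes with a promoter sequence.

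The protease genes of the extracellular matrix moved in both directions. Of 19 matrix metalloproteinases and inhibitors 5 (26.3%) rose and 3 (15.8%) fell, and the list's median of 0.02 changed sign under some alternatives. With at least 10 counts in every library 10 of them were tested, and 1 rose and 1 fell. Apart from MMP1, the members that rose stayed at no more than 1.60 CPM in every library. MMP10, for instance, had 0.318, 0.0933 and 0.2 CPM in untreated and 1.48, 0.777 and 1.6 CPM in treated cells. TIMP3, which encodes an inhibitor of metalloproteinases, fell from 849, 917 and 923 to 299, 293 and 301 CPM (log2 fold change of -1.59 ± 0.05 SE, edgeR adjusted p = 1.1e-09). Of 10 members of the plasminogen activator system, 2 rose, SERPINB2 and SERPINB7, both at no more than 2.45 CPM. By the adjusted p alone 8 of the 10 were higher and none lower, where 28.6% of all genes were higher and 28.5% lower. Among 18 ADAM and ADAMTS proteases none rose and 5 (27.8%) fell, and ADAMTS12 was the one with the smallest adjusted p, at 59.4, 65.6 and 69.2 against 29.1, 23.4 and 24.3 CPM.

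Of 26 collagen chains tested, 10 fell, which is 38.5% against the 7.31% of all genes that fell, and 4 rose, with a median of -0.46, and the 4 that rose were at no more than 13.0 CPM in any library. COL6A3, a chain of the beaded filament collagen VI, fell from 110.2, 139 and 134 to 28.2, 29.3 and 30.3 CPM (log2 fold change of -2.12 ± 0.09 SE, edgeR adjusted p = 5.6e-09), and COL5A1 from 199, 362 and 377 to 71, 69.3 and 64 CPM. COL15A1, a basement membrane collagen, rose from 2.22, 2.29 and 2.59 to 11.7, 13 and 12.6 CPM (log2 fold change of 2.39 ± 0.12 SE, edgeR adjusted p = 3e-08). Of 27 integrin and laminin subunits 8 (29.6%) fell and 3 (11.1%) rose. With at least 10 counts in every library, 2 of 20 collagen chains and 1 of 24 integrin and laminin subunits rose. ITGA6, which pairs with ITGB4 to bind laminin, fell from 549, 555 and 576 to 237, 245 and 247 CPM (log2 fold change of -1.20 ± 0.05 SE, edgeR adjusted p = 8.9e-09), and ITGB5 from 323, 381 and 359.9 to 128, 128 and 121 CPM.

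Of 23 YAP and TEAD target genes, 5 fell and none rose, a share of 21.7% against the 7.31% of all genes that fell. CCN2, connective tissue growth factor, fell from 528, 541 and 534 to 209, 198 and 203 CPM (log2 fold change of -1.39 ± 0.05 SE, edgeR adjusted p = 1.7e-09), and ANKRD1 from 621, 439 and 386 to 135, 139 and 139 CPM. BMP4 fell from 192, 173 and 179.6 to 64.7, 63.3 and 63.5 CPM and TGFB2 from 109.7, 126 and 119 to 37.5, 39.9 and 39.4 CPM. ID1, an inhibitor of differentiation that BMP signalling induces, fell from 49.7, 49.9 and 46.7 to 18.6, 20.7 and 16.9 CPM, whereas its relatives ID2 and ID3 rose at low level. Of 14 keratins 2 rose and 2 fell, and 4 rose without untreated replicate 1 or without untreated replicate 2, with 15 tested. KRT19 fell from 619, 889.6 and 917 to 335, 343 and 324 CPM and KRT7 from 314, 378 and 347 to 137, 134 and 126 CPM. KRT5 rose, but unevenly, with 0.106, 0.0933 and 0.0499 CPM untreated and 3.98, 0.826 and 1.21 CPM after 5-FU. The other squamous markers KRT14 and KRT6A, which were too low to be tested, were at 2.32 and 1.95 CPM in 5-FU replicate 1 and at no more than 0.437 CPM in the other two 5-FU libraries. Over all 8 squamous markers the summed level was 165 to 266 CPM in untreated and 197 to 213 CPM in treated cells, most of it from SFN, with 1 marker, DSG3, at 0 in every untreated library. The part of such markers in the keratin result was not tested.

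Genes of glycolysis and the hypoxia response were mostly lower by the adjusted p. Hypoxia-inducible factors switch on glycolytic enzymes, lactate production and pH control when oxygen is low. Of 30 tested members 13 fell and none rose, and 24 were lower and 1 higher by the adjusted p alone, with a median of -0.73. The share that fell was 43.3%, against 7.31% of all genes. By the adjusted p alone, 28.5% of all genes were lower. With library size alone 7 of the 30 fell, and the median was -0.60. LDHA, lactate dehydrogenase A, fell from 3606, 2761 and 2702 to 1174, 1194 and 1251 CPM (log2 fold change of -1.33 ± 0.09 SE, edgeR adjusted p = 2.9e-07). PGK1, phosphoglycerate kinase, had 1723, 1446 and 1403 against 695, 719 and 739 CPM, a fall whose log2 change of -1.09 became -0.99 without untreated replicate 1 and -0.96 with library size alone. Both genes have processed pseudogenes, which can take a share of their reads.

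PDK1, a kinase that keeps pyruvate out of mitochondria, fell from 33.2, 28.4 and 27.2 to 8.61, 9.62 and 8.91 CPM (log2 fold change of -1.71 ± 0.09 SE, edgeR adjusted p = 3.8e-08). EGLN3, a prolyl hydroxylase that marks hypoxia-inducible factors for destruction, fell from 24.7, 18.7 and 18 to 4.91, 3.93 and 4.5 CPM, and NDRG1 from 443, 539 and 616 to 169, 170.2 and 167 CPM. BNIP3, which takes part in mitophagy, fell from 428, 329 and 338 to 127, 132 and 132 CPM (log2 fold change of -1.48 ± 0.09 SE, edgeR adjusted p = 8.5e-08). CA9, a carbonic anhydrase often used as a hypoxia marker, had 2.97, 4.67 and 5.39 CPM in untreated and 0.787, 0.389 and 0.484 CPM in treated cells (log2 fold change of -2.95 ± 0.31 SE, edgeR adjusted p = 6.3e-06). The CA9 and LDHA promoters hold the hypoxia response core ACGTG (or its reverse complement CACGT), printed in capitals over the same 250 bases of RefSeq on GRCh38.p14. These letters also lie within the E-box CACGTG, where other factors bind.
CA9 (chr9:35673678-35673927, + strand): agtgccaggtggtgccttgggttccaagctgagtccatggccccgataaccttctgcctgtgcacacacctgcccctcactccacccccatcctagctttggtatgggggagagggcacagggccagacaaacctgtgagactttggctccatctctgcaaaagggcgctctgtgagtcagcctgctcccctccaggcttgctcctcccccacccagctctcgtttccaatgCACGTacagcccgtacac
LDHA (chr11:18394313-18394562, + strand): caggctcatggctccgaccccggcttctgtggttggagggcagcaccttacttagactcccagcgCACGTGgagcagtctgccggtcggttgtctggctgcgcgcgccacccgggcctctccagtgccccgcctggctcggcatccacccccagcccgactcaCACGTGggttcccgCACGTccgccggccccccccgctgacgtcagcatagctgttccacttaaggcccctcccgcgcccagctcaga
Matches were found in 44.4% of the 27 members of this list with a promoter sequence, in 23.1% of all 11235 and in 20.6% of the 762 genes that fell. This is a description with no test.

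Sterol genes were lower too. SREBP factors control the synthesis and uptake of cholesterol, and INSIG1 is among their targets. Of 27 tested members 6 fell and none rose, and 20 were lower and none higher by the adjusted p alone, with a median of -0.50. The share that fell was 22.2%, against 7.31% of all genes. By the adjusted p alone, 28.5% of all genes were lower. INSIG1 fell from 195, 169 and 168 to 65, 65.2 and 67.4 CPM (log2 fold change of -1.43 ± 0.06 SE, edgeR adjusted p = 1e-08), and LSS, lanosterol synthase, from 136, 173 and 187 to 72.7, 72.5 and 63.2 CPM. SREBF1 had 161, 507 and 552 CPM untreated, so that replicate 1 lay below all 3 treated libraries, which had 199.9, 197 and 174 CPM. The SREBF1 and SREBF2 calls were lost with library size alone, and their log2 fold changes of -1.10 and -1.06 became -0.91 and -0.97 without untreated replicate 2, and -0.81 and -0.88 without replicate 3. Offsets for GC content and transcript length gave -0.84 and -0.92, and the SREBF1 call was also lost when the 6 libraries were fitted alone. In the same promoter windows the CCAAT box (CCAAT), where NF-Y binds, was found in 71.4% of the 21 sterol genes with a sequence, against 34.8% of all 11235, with no test. The share was not particular to this list, with 70% of 10 promoters of matrix metalloproteinases and inhibitors. SCD, which desaturates fatty acids, fell from 583, 790.0 and 804 to 210.2, 194 and 207 CPM (log2 fold change of -1.83 ± 0.10 SE, edgeR adjusted p = 6e-08), and FADS2 from 270.1, 397 and 407 to 129, 135 and 136 CPM.

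In the stress response lists, the ATF4 targets moved in both directions. PPP1R15A, the phosphatase subunit that reverses translation arrest, rose from 213, 231 and 243 to 554, 559 and 550.4 CPM, DDIT3, the transcription factor CHOP, from 12.1, 8.68 and 9.13 to 37, 39.4 and 38.6 CPM (log2 fold change of 1.95 ± 0.12 SE, edgeR adjusted p = 1e-07), and ATF3 from 18.4, 16.4 and 16 to 43, 43.3 and 42.5 CPM. The amino acid enzymes PSAT1 and ASNS fell from 262, 224 and 216 to 64.4, 62.7 and 63.4 and from 128, 134 and 127 to 51.2, 55 and 57.3 CPM (log2 fold change of -1.25 ± 0.06 SE, edgeR adjusted p = 1.4e-08). In all, 3 of 25 members (12%) rose and 6 (24%) fell. Of the 21 unfolded protein response genes 1 rose, ERN1, a sensor of the endoplasmic reticulum, at 10.4, 16.8 and 16.5 against 62.9, 56.4 and 59.4 CPM. Of 29 immediate early and stress transcription factors, 6 (20.7%) rose and 4 (13.8%) fell, and 3 rose with at least 10 counts in every library. EGR2 and DUSP5 rose, with log2 fold changes of 2.44 and 1.18, while FOS and FOSB had the largest decreases, as above.

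In the list of NRF2 targets 5 of 28 (17.9%) rose and 1 (3.57%) fell, and 3 rose without untreated replicate 3. Of all genes 6.01% rose and 7.31% fell. SQSTM1, an autophagy receptor, rose from 205, 253 and 259.7 to 502, 506 and 476 CPM, with a log2 fold change of 1.05 that was 0.95 without untreated replicate 1. HSPB8, a small heat shock protein, rose from 7.1, 7.05 and 5.74 to 20.2, 23.8 and 22.3 CPM. MT2A, a metallothionein, fell from 1289, 1127 and 1049 to 481, 500.3 and 495 CPM, and MT1E from 317, 170.1 and 159 to 42.4, 43.3 and 41.9 CPM, with the first untreated library highest in both. CYP1A1, the aryl hydrocarbon receptor's classical target, rose from 1.8, 1.07 and 0.898 to 5.28, 5.68 and 4.75 CPM (log2 fold change of 2.07 ± 0.17 SE, edgeR adjusted p = 1.1e-06). In that receptor's list 2 of 10 members (20%) rose and none fell, with a median of 0.25, and 6 did not pass the adjusted p. With at least 10 counts in every library, 1 of 8 rose.

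None of 71 ribosome biogenesis genes passed both thresholds, although 3 rose with library size alone, and 34 were higher and 5 lower by the adjusted p alone. In 84 cytosolic ribosomal protein genes, 7 were higher and 30 lower, and the median of -0.21 was -0.04 without untreated replicate 1. By the adjusted p alone, 28.6% of all genes were higher and 28.5% lower. Of 18 snoRNA host genes 2 (11.1%) rose and 1 (5.56%) fell, against 6.01% and 7.31% of all genes, and none fell without untreated replicate 1. SNHG1 rose from 121, 94 and 90.9 to 253, 268 and 260.0 CPM and SNHG17 from 24.7, 22.6 and 23.2 to 56.3, 60.8 and 47.9 CPM. Of 49 interferon-stimulated genes and sensors 5 rose and none fell, and 8 rose without untreated replicate 1. The share that rose was 10.2%, against 6.01% of all genes. CGAS, the cytosolic DNA sensor, rose from 56.7, 54.8 and 51.3 to 125, 126 and 129.6 CPM (log2 fold change of 1.23 ± 0.06 SE, edgeR adjusted p = 1.4e-08), and IRF7 from 16.9, 29.2 and 30.6 to 82.7, 85.4 and 71.1 CPM. No HLA class I or peptide loading gene of 17 tested passed both thresholds.

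**Figure D3:**
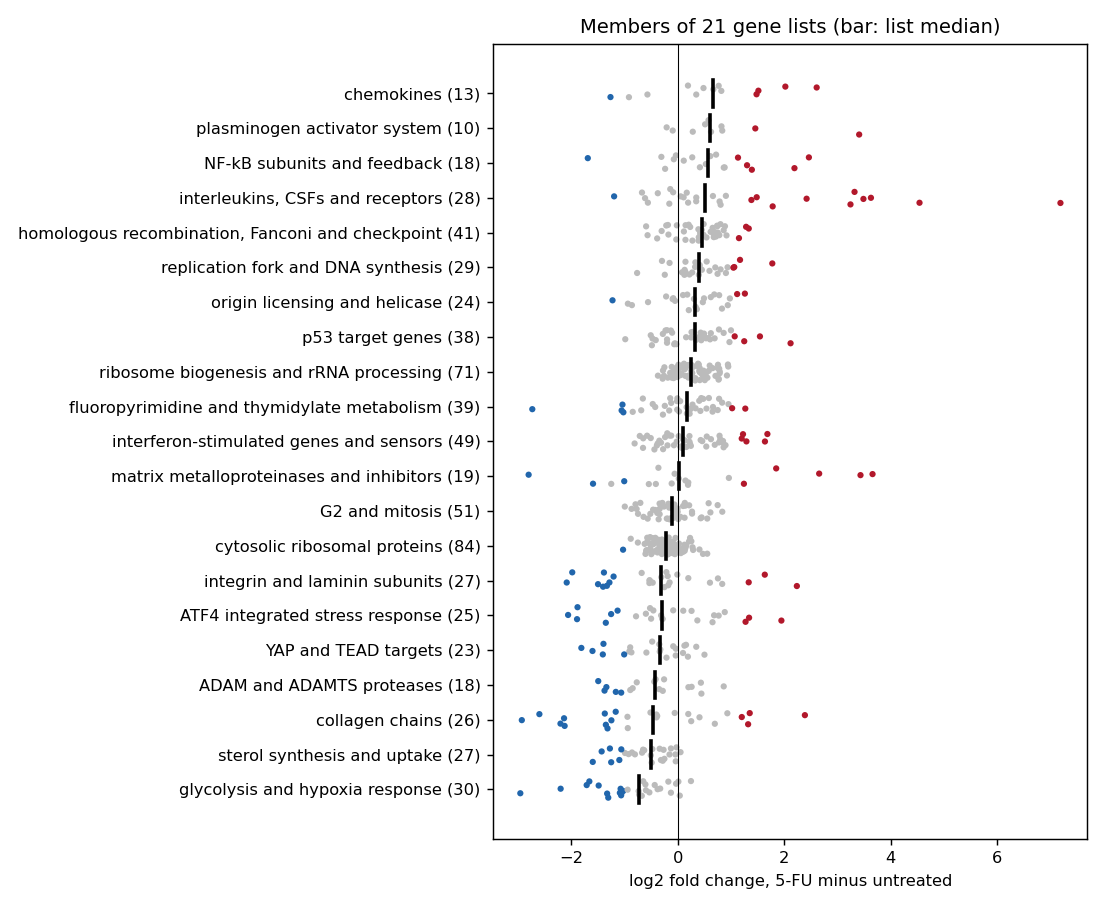
Log2 fold change of 5-FU minus untreated for the tested members of 21 lists (points, red where they rose, blue where they fell and grey otherwise), with the list median as a bar and the number of members in brackets. The medians run from -0.73 for glycolysis and hypoxia to 0.67 for chemokines. The farthest point to the right is IL1RL1, which was at 0 in every untreated library.

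5-FU was also given to cells that received CKI at 1 mg/ml, and CKI plus 5-FU was compared with CKI over libraries that share none with the comparison above. Here 177 genes rose (1.26% of those tested) and 356 fell (2.54%). Of the 1866 DE genes, 294 were called in the same direction and 6 in the opposite one. The 294 are 15.8% of the first list and 55.2% of the 533 genes of the second. Without regard to calls, 85.2% of the 1866 genes had the same sign with CKI, against 68.5% of all genes tested. Over all genes tested, the log2 fold changes with and without CKI correlated with Pearson's r of 0.524. The median log2 fold change of the genes that rose was 1.33 without CKI and 0.42 with it, and that of the genes that fell was -1.35 and -0.56, where the first value of each pair is set by the choice of genes. The difference between the 5-FU effects was itself tested, and passed both thresholds in 958 genes, 6.84% of those tested, of which 425 were more positive and 533 more negative with CKI.

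MMP1 had 210.3, 218 and 219.5 CPM with CKI alone and 391, 422 and 425 CPM with CKI plus 5-FU, a log2 fold change of 0.94 against 3.43 without CKI. CDKN1A had a log2 fold change of -0.18 with CKI and 1.54 without, and IL11 of 0.12 and 2.42. For DDIT3 the values were 1.89 and 1.95, and the test of their difference did not pass (difference of -0.06 ± 0.17, SE, edgeR adjusted p = 0.81), nor did that of LSS, at -1.31 and -1.25 (difference of -0.06 ± 0.14, SE, edgeR adjusted p = 0.76). The sterol list had a median of -0.79 with CKI and -0.50 without it.

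**Figure D4:**
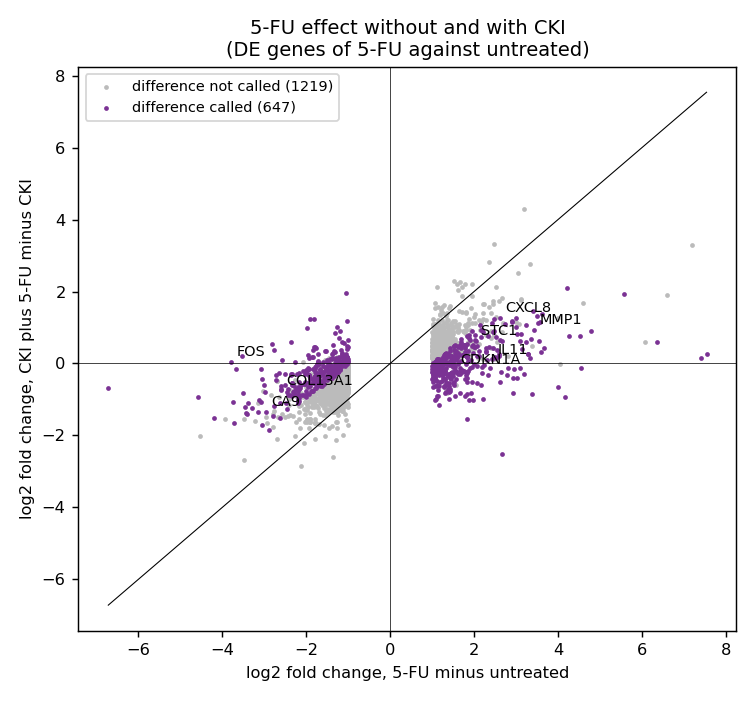
Log2 fold change of 5-FU against untreated (x axis) and of CKI plus 5-FU against CKI (y axis) for the 1866 DE genes, with the diagonal of equal effects. The 647 genes in purple passed both thresholds in the test of the difference, and in 644 of these the effect with CKI was of smaller size. The genes shown were chosen by their effect without CKI, and the difference uses the same libraries. This direction was therefore largely set by the choice of genes.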

How the data were processed

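The deposited counts are whole reads per gene, not normalized. The authors trimmed reads with Trim Galore 0.3.7 and aligned them to hg19 with STAR 2.5.3a, as the submitters' processing notes list, and the counting tool and annotation are not given in the sources used here. The table holds 24566 genes by Entrez ID, of which 24422 were matched to a RefSeq symbol, and 194 Ensembl IDs stand under more than 1 Entrez ID with identical counts. Per the labels the libraries carry no strand information, so reads of a gene and an overlapping or antisense partner cannot be told apart.

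The 12 MDA-MB-231 libraries were fitted together with edgeR 4.0.16 in R 4.3.3 (filterByExpr, TMM, glmQLFit, glmQLFTest). P-values were adjusted by Benjamini-Hochberg over all 13999 genes tested. They measure the spread between libraries described as biological replicates. The depth of 19979962 to 22809339 counts a library puts 3 counts at 0.132 to 0.150 CPM, which covers counting error only. The script was tested on simulated counts with 200 changed genes.

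The 6 libraries were grouped by their labels, but the comparison described, the gene lists and the genes named were chosen with earlier results of these data known. Named genes were the 15 of smallest adjusted p and the 5 of largest change (with at least 5 CPM in the higher group) in each direction whose groups did not overlap, up to 6 DE members of each list in each direction by adjusted p, 22 genes named in any case, and the 5 of smallest adjusted p in each direction for the difference with and without CKI. PLK2, CA9, LDHA, IL1RL1 and the cell type markers fall outside this rule and were named after their values were seen. Some genes that the rule names are not reported here. Alternatives were RLE factors, library size alone, DESeq2 1.42.0, the likelihood ratio test, other filters, fewer libraries, the adjusted p alone, a replicate block, offsets for GC content and transcript length (lowess span of 0.3), 1 row per Ensembl ID, and leaving out each library in turn. Promoters came from a RefSeq table for GRCh38.p14, which matched 11235 of the 13999 genes. Motifs and the genes shown were chosen after the results were seen.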

Additional observations from a re-analysis of the deposited data

Results flagged for a closer look

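The 5-FU effect with and without CKI differed in 958 genes when the difference itself was tested in edgeR, at an adjusted p of 0.05 and a log2 difference above 1 or below -1. In the values that follow, the log2 difference is the effect with CKI minus the effect without it. Among genes named in any case or chosen by smallest adjusted p, MMP1 differed by -2.50, CXCL8 by -1.34, IL1A by -2.17, IL1B by -1.30 and IL11 by -2.30. All 5 rose with 5-FU alone, and each difference was negative. The same untreated and 5-FU libraries enter the rise and the difference, so this direction was favoured in advance. CDKN1A differed by -1.72 and GDF15 by -1.66. Both are genes that p53 is known to induce, and the part of p53 here was not tested. RRM2 differed by -1.15, TK1 by -1.24, MKI67 by -1.21 and CDCA5 by -1.44. STC1 differed by -1.40, and RPL13AP20, whose reads could be shared with near-identical copies, by -3.41.

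Positive differences were found for genes that fell with 5-FU alone, a direction favoured in advance in the same way. FOS differed by 3.84, with 258, 257 and 242 CPM under CKI and 279.7, 258 and 244 CPM under CKI plus 5-FU. COL13A1 differed by 1.85, VIPR1 by 1.91, MBP by 1.51 and DPYD by 1.16. CKI and 5-FU were given together in these cells, and the part of CKI's own effect on these genes was not tested. Groups of 3 libraries were not tested for outlying libraries.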

How the results depend on the processing

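The 1866 DE genes were 7992 (3998 higher, 3994 lower) with the adjusted p alone. With at least 10 counts in every library, which tested 12552 genes and so leaves out genes near 0 in 1 group, 1313 were called and 536 rose. Under the same filter, CKI plus 5-FU against CKI gave 340 DE genes, 83 of them up, and 181 were shared in direction. RLE factors gave 1863, DESeq2 1853, the likelihood ratio test 1915 and the 6 libraries alone 1690. Library size alone gave 1910, with 59.8% up in place of 45.1%. The GC content and length offsets gave 1818 and kept 89.1% of the calls. Leaving out 1 library gave 1810 to 2133, the highest without untreated replicate 1, which kept 90% of the calls. For the 203 genes named by the rule above, 3499 of 3627 values kept their call, 111 lost it, 17 gained one and none reversed, and all 527 differences with CKI kept theirs. Most of these genes were chosen by adjusted p or size of change, which favours a kept call. Of all main calls, leaving out 1 library kept 86.1% to 91.6%, and at least 10 counts in every library kept 69.9%. The replicate block gave 1841 DE genes and kept 97.7% of the calls. Deviations from the group means of same-numbered untreated and 5-FU libraries correlated with r of -0.209, 0.0666 and -0.19, so the numbers were not taken to pair them.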

Other observations

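Further gene groups were described by the same counts. Of 14 EGFR family ligands and receptors, HBEGF rose from 99, 104 and 108 to 231, 236 and 234 CPM (log2 fold change of 1.17 ± 0.05 SE, edgeR adjusted p = 8.8e-09) and EREG, the ligand epiregulin, from 11.9, 9.52 and 10.4 to 28.9, 27.8 and 29.5 CPM, while 1 member fell. Among 8 drug efflux pumps, ABCG2 rose from 5.56, 2.61 and 2.74 to 8.1, 8.69 and 8.76 CPM and ABCC3 fell from 21.6, 23.8 and 26.5 to 10.5, 9.76 and 8.38 CPM. FASN, fatty acid synthase, had 239.6, 721 and 816 CPM in untreated and 219.6, 185 and 176 CPM in treated cells, so that untreated replicate 1 lay near the treated libraries (log2 fold change of -1.61 ± 0.32 SE, edgeR adjusted p = 0.001).

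HMGA2, a chromatin protein of mesenchymal tumour cells, fell from 81.5, 66.5 and 68 to 31, 28.9 and 26.7 CPM (log2 fold change of -1.32 ± 0.10 SE, edgeR adjusted p = 5e-07). CAV1, caveolin 1, one of the line's markers, fell from 830.2, 592 and 566 to 283, 292 and 293 CPM. CD14, a receptor better known from monocytes, was at 13.2, 15.1 and 14 CPM untreated and 4.91, 4.81 and 6.15 CPM after 5-FU, while the immune marker CD3E was at 0 in every untreated library. Of 77 respiratory chain subunit genes 2 (2.6%) rose and none fell, and 1 rose without untreated replicate 1. Of 41 lysosome and proton pump genes none rose and 2 (4.88%) fell. The latter count was 0 with library size alone and with offsets for GC content and transcript length.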
